A study of Mus musculus with 14 samples.

Results

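The oxidative phosphorylation subunits described here were 85 gene names of the 36413 in the deposited expression table. The rule that chose them goes by symbol and uses no expression value. It took names made of Nduf, one of the letters a, b, c, s or v and a number, names that start with Uqcr, with Cox and a digit from 4 to 8 or with Atp5, and Sdha, Sdhb, Sdhc and Sdhd. Complex I contributed 37 names, complex II 4, complex III 8, complex IV 19 and ATP synthase 17. These groups go by the start of the symbol alone, and Ndufa4 and Ndufa4l2 are counted in complex I on that ground only. The symbol rule also took in Cox4nb, a neighbour of Cox4i1 that RefSeq now calls Emc8 and that belongs to a complex of the endoplasmic reticulum. Atp5s and Atp5sl, now Dmac2l and Dmac2, are not core subunits of ATP synthase either.

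Oxidative phosphorylation is the stepwise transfer of electrons from NADH and succinate to oxygen in the inner mitochondrial membrane. Complexes I, III and IV pump protons as electrons pass, complex II feeds in electrons from succinate without pumping, and ATP synthase uses the returning protons to make ATP. Most subunits are encoded in the nucleus and a small core is encoded in mitochondrial DNA, so the complexes are built from both genomes. Several subunits of complex IV exist in a general form and in a form known from muscle, testis, lung or hypoxic cells, such as Cox6a1 and Cox6a2 or Cox7a2 and Cox7a1.

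Expression was measured on 14 one-colour Agilent mouse arrays in 7 groups of 2, replicates A and B, to ask how co-culture and the Hsf1 gene of the fibroblasts act on both cell types. D2A1, a mouse breast cancer cell line, was profiled alone, after growth with wild-type (WT, Hsf1 +/+) mouse embryonic fibroblasts (MEFs), and after growth with Hsf1 -/- (null) MEFs. WT MEFs and null MEFs were each profiled alone and after growth with D2A1 cells. Hsf1 encodes the main transcription factor of the heat shock response, and no genotype is given for the tumor cells. All cells were kept for 72 hours in DMEM with 10% serum and the cell types were then separated by cell sorting. MEFs that were partners of profiled tumor cells had been treated with mitomycin C (10 ug/ml, 2 hours), so the MEFs profiled after co-culture and those that the profiled tumor cells had met were not treated alike. The labels do not say how many clones, embryos or separate cultures stand behind a group, so p-values measure the spread between these samples, which may be technical.

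Hsf1 itself was read by 1 probe whose place relative to the deleted part is not given in the sources used here. Its log2 values were 12.01 and 11.69 in WT MEFs alone, 12.05 and 12.04 in WT MEFs with tumor cells, 10.07 and 9.97 in null MEFs alone and 10.52 and 10.67 in null MEFs with tumor cells. The null groups were below the WT groups without overlap, by a log2 difference of 1.83 ± 0.12 (SE) alone (limma, adjusted p = 1.11e-06), while the probe stayed well above background in them. Tumor cells lay between 12.29 and 12.85.

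After co-culture, the sorted cells also read genes typical of the other cell type. All 12 fibroblast marker genes were well above background in both MEF groups grown alone, against 6 of 12 in tumor cells alone. Keratin 18 (Krt18) read 16.47 and 16.54 in tumor cells alone, whereas Cdh1 and Epcam, which define epithelial cells, were not well above background there. Of 12 epithelial markers, 8 were well above background in tumor cells alone, 8 in WT and 10 in null MEFs without tumor cells, so their number did not set the tumor cells apart. Keratin 19 (Krt19) was not well above background in tumor cells alone and read 8.65 and 8.77 in WT MEFs and 11.70 and 11.98 in null MEFs without tumor cells. From genes at least 32-fold higher in the other cell type, the share of partner RNA was estimated at 40.2% and 41.7% in the WT MEFs after co-culture, 10.4% and 10.2% in the null MEFs after co-culture, 7.46% and 7.37% in tumor cells with WT MEFs, and 9.44% and 23.5% in tumor cells with null MEFs. The estimates for MEF arrays rest on 65 and 70 genes and those for tumor cell arrays on 229, and single markers could differ from them: Krt18 read 16.16 and 16.37 in WT MEFs with tumor cells, close to tumor cells alone. The estimate takes such genes as partner RNA, and whether they rose in the sorted cells themselves was not tested. The part of partner RNA in the results was not tested beyond that. Subtracting these shares is one of the alternative settings quoted below. Of 9 macrophage markers, 7 were well above background in WT MEFs alone, 6 in null MEFs alone and 7 in tumor cells alone. The log2 of their summed level ran from 9.91 to 10.34 in MEFs alone and from 13.15 to 13.59 in the tumor cell groups. That sum mostly followed 1 gene in the tumor cell groups, Cd14, at 13.02 to 13.46 there and 5.72 to 8.28 in MEFs alone. Others did not follow it: Aif1 read 5.05 and 5.06 in tumor cells alone and 7.56 and 7.78 in null MEFs alone. Fewer transcripts per cell and fewer cells of a type cannot be told apart in such sorted bulk samples.

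Promoters of the subunit genes are shown because the members that moved most, described below, were not the general forms but their tissue-restricted counterparts. All 85 names matched a RefSeq gene and 69 had a promoter window in the RefSeq table (GRCm38.p6), which runs from 250 bases before to 50 bases after the most upstream start of a gene. The 8-base core GCATGCGC of NRF1, a regulator of respiratory chain genes, was found on either strand in 10 of the 69 windows (14.5%), against 2.8% of 27025 windows of all genes. The YY1 core AAGATGGC was found in 10 of 69 (14.5%, all genes 2.87%), the ERR core AAGGTCA in 8 (11.6%, all genes 4.65%) and the ETS core CCGGAAGT in 5 (7.2%, all genes 3.99%). Heat shock element dimers, GAANNTTC or TTCNNGAA, the kind of site HSF1 binds, were found in 8 of 69 windows (11.6%, all genes 15.15%). A match is only a match of letters, and 31 of the 69 windows held none of the 5. GC content had a median of 57.0% in the members' windows and 52.7% in all.

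The 250 bases before the start of 6 genes follow, 5′ to 3′ on the strand of the gene, with motif matches in capitals. Cox6a1, Cox7a2 and Cox8a are general forms of complex IV subunits, Cox7a1 and Cox8b are the forms known from muscle and heart, and Uqcr11 is the complex III subunit with the widest range across the groups.
Cox6a1, chr5:115348959-115349208, minus strand: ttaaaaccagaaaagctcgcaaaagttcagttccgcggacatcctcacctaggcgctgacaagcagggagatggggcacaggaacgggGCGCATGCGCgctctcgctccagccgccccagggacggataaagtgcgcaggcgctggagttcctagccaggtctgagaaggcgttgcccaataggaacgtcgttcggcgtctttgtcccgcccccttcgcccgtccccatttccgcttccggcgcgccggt
Uqcr11, chr10:80406822-80407071, minus strand: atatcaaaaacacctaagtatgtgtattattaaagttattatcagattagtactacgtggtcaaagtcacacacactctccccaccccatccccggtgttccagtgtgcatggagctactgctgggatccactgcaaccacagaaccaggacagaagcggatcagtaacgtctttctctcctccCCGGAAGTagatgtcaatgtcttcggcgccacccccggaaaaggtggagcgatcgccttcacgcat
Cox7a2, chr9:79759854-79760103, minus strand: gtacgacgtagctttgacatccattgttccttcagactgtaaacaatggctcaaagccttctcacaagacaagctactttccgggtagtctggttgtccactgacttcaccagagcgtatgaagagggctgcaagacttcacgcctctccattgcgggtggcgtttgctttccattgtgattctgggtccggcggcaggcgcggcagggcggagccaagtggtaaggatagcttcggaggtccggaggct
Cox7a1, chr7:30183921-30184170, plus strand: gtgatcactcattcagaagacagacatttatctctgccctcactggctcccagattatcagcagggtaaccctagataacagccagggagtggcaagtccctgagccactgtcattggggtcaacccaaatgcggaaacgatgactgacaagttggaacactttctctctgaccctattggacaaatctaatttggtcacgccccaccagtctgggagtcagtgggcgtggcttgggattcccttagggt
Cox8a, chr19:7217617-7217866, minus strand: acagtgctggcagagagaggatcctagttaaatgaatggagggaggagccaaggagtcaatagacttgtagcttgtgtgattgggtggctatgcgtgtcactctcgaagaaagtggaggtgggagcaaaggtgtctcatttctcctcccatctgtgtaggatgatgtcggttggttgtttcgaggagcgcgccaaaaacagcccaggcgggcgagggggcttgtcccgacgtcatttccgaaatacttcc
Cox8b, chr7:140900447-140900696, minus strand: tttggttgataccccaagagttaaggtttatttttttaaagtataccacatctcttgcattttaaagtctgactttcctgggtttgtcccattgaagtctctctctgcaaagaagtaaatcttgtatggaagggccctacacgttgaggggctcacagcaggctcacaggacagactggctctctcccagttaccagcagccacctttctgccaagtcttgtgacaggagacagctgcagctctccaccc
In Cox6a1 the capitals are overlapping NRF1 matches on opposite strands that start 162 and 160 bases before the gene, and in Uqcr11 they are an ETS match 66 bases before it. The stretches of Cox7a2, Cox8a, Cox7a1 and Cox8b held no match to any of the 5 motifs. The window of Cox8a held 2 ETS matches and that of Uqcr11 1 NRF1 match that did not lie wholly within the stretches shown. CG dinucleotides numbered 26 in the stretch of Cox6a1, 14 in Cox7a2 and 11 in Cox8a, against 4 in Cox7a1 and 1 in Cox8b. Cox6a2 and Ndufa4l2 had no window in the table.

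Most subunit genes varied by less than 1 on the log2 scale across the means of the 7 groups, 73 of the 83 tested, and 38 by less than 0.5. Of the 85 members, 81 were well above background in every group and 83 in at least 1, and those 83 were tested. Their group means differed by a median of 0.55 on the log2 scale between the highest and the lowest group, against 0.83 over all 25852 gene names tested. Only 10 of the 83 spanned a log2 range of 1 or more, against 40.1% of all genes tested. These were Cox6a2 with a range of 3.71, Ndufa4l2 with 2.54, Cox8b with 2.05, Cox7a1 with 1.7, Uqcr11 with 1.34, Sdha with 1.08, Cox6b2 and Ndufs7 with 1.07, Ndufa10 with 1.01 and Ndufa4 with 1.0. ATP synthase had no such member among 17. The members and all genes tested were not matched for level, with median levels of 15.11 and 8.31. The part of level in the narrower ranges was not tested. The ranges of Ndufa4l2 and Cox8b are bounds, because their lowest groups were not well above background on both arrays. The mean over the 83 members stayed between 14.491 and 14.775 on the 14 arrays. It was 14.745 and 14.775 in null MEFs alone, the highest pair, and 14.534 and 14.557 in tumor cells with null MEFs.

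**Figure D1:**
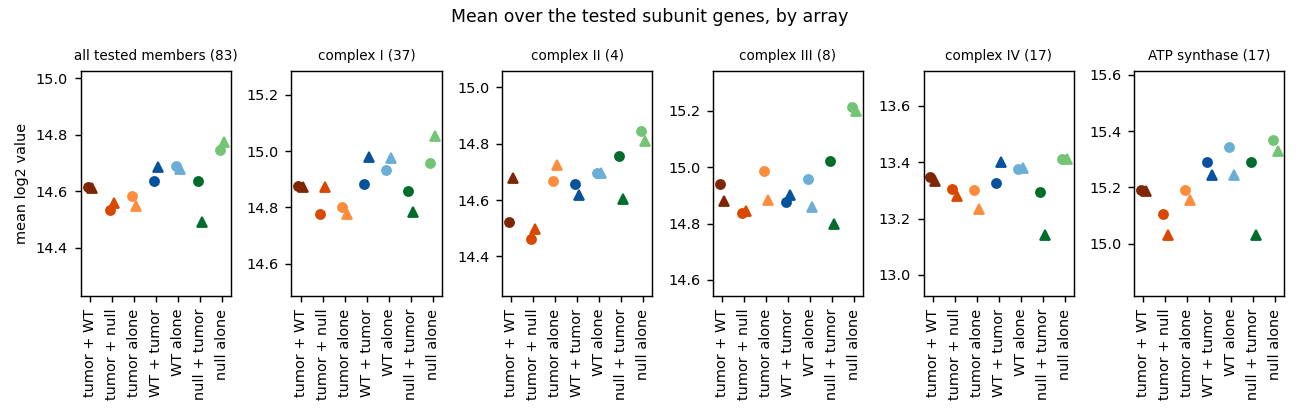
Mean log2 value over the tested subunit genes (left) and over each complex, for the 7 groups, with replicate A as circles and replicate B as triangles; the number of genes is in brackets and each axis spans 0.8 log2 units. The 2 null MEF arrays without tumor cells are the highest pair for all members (14.745 and 14.775), and null MEFs with tumor cells B is the lowest array (14.491).

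The widest differences were between WT and null MEFs grown alone, and they fell on a few tissue-restricted forms. Cox6a2, the heart and skeletal muscle form of complex IV subunit VIa, read 11.22 and 11.51 in WT MEFs and 7.42 and 7.87 in null MEFs. WT MEFs were thus higher without overlap, by a log2 difference of 3.71 ± 0.22 (SE, n = 2 against 2), or 13.1-fold (limma, adjusted p = 4.91e-07). Cox6a2 was read by 1 probe at chr7:135349160-135349219 (mm9, minus strand).

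Ndufa4l2, a paralog of Ndufa4 known to be induced by hypoxia, went the same way. It read 7.79 and 8.22 in WT MEFs and 5.19 and 5.74 in null MEFs (log2 difference 2.54 ± 0.21, adjusted p = 5.89e-06, 1 probe at chr10:126954149-126954208, mm9). Only 1 of the 2 null arrays was well above background, so the fold is at least 5.82.

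Cox8b and Cox7a1, known from heart and skeletal muscle like Cox6a2, went the opposite way. Cox8b read 5.18 and 5.13 in WT MEFs, where it was not well above background, and 7.15 and 7.05 in null MEFs. It was at least 3.85-fold higher in null MEFs, the bound being taken against the higher of the measured value and the dimmest detected signal of each array. Cox8b was among the tested genes only through the null MEF groups, where it is high, so its calls are given as a description and no p is read from them. Cox7a1 read 8.90 and 9.06 in WT MEFs and 10.45 and 10.91 in null MEFs, a log2 difference of -1.7 ± 0.16 (adjusted p = 1.23e-05). These 4 forms therefore did not move together between the genotypes: 2 were higher in WT MEFs and 2 in null MEFs. Of 8 skeletal or cardiac muscle markers, Actc1, Myh3 and Ttn were not well above background in any of the 7 groups. The log2 of the markers' summed level was 12.85 and 12.29 in the WT arrays, 11.9 and 11.5 in the null arrays and 13.41 to 14.18 in the tumor cell groups. In the tumor cell groups that sum mostly followed 1 gene, Tnnt2, at 13.20 to 14.13 there and 5.88 to 6.45 in MEFs alone. Acta1 did not follow it, at 8.63 to 10.72 in the tumor cell groups and 10.17 to 12.78 in MEFs alone. The number well above background was 3 of 8 in WT MEFs alone, 5 in null MEFs alone and 2 in tumor cells alone. The detected markers went opposite ways between the genotypes: Acta1 read 12.78 and 12.18 in WT and 11.10 and 10.17 in null MEFs alone, and Tnnt3 read 6.78 and 6.96 in WT and 10.36 and 10.53 in null MEFs alone. The part of muscle markers in these results was not tested.

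**Figure D2:**
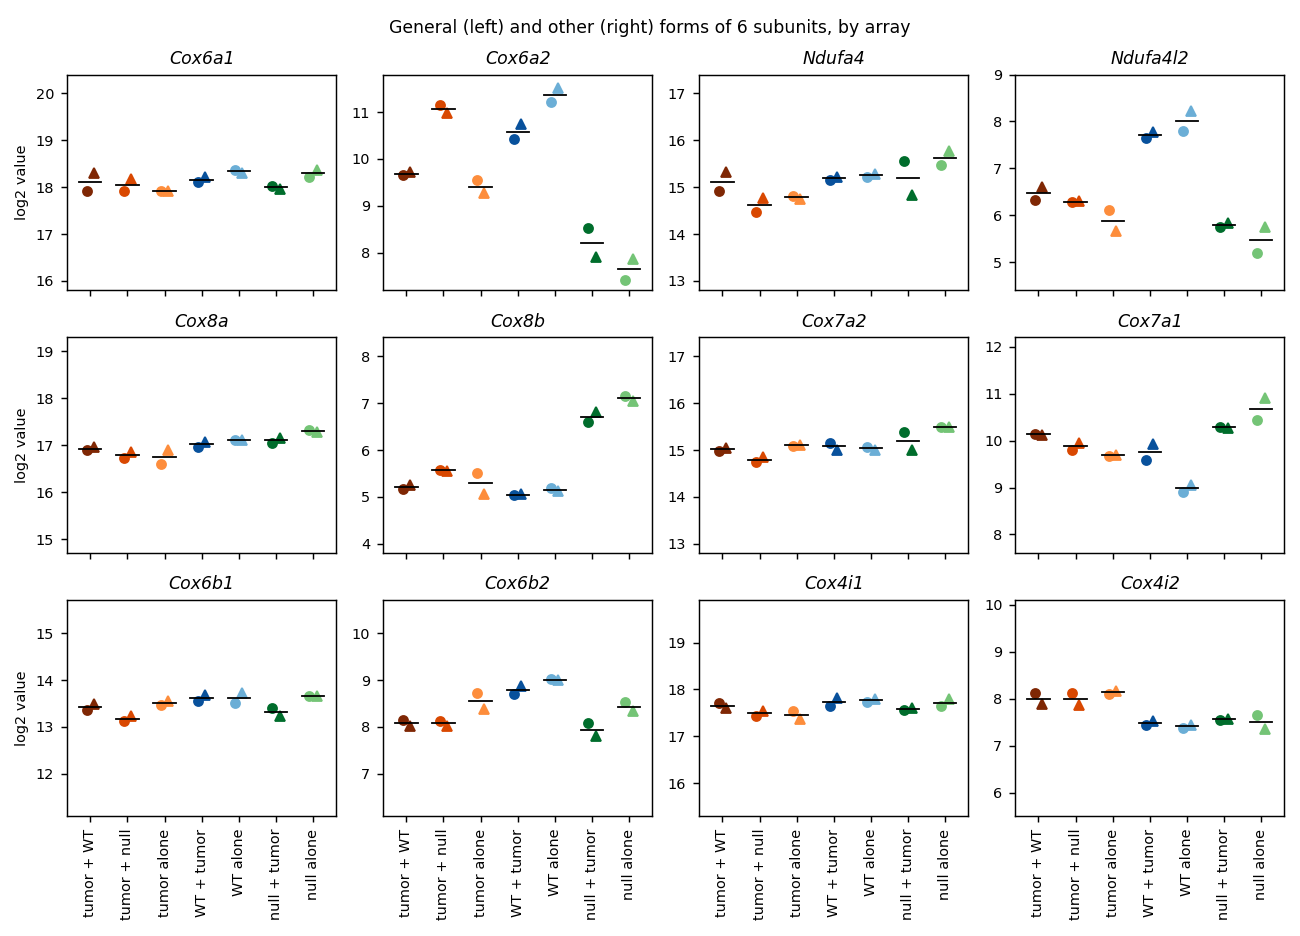
Log2 values of the general form (left of each pair) and the other form (right of each pair) of 6 subunits in the 7 groups; circles are replicate A, triangles replicate B, lines the group means, and every axis spans 4.6 log2 units. Cox6a2 spans 3.71 between group means and its general counterpart Cox6a1 0.42. Ndufa4l2, Cox8b and Cox7a1 also span more (at least 2.54, at least 2.05 and 1.7) than Ndufa4, Cox8a and Cox7a2 (1.0, 0.55 and 0.7).

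Of the 83 members, 69 differed by less than 0.5 on the log2 scale in MEFs alone. In all, 4 members were higher in WT MEFs (all genes tested, 15.9%) and 15 were lower (all genes tested, 17.9%), and the called share of 22.9% was below the 33.8% of all genes tested. The median over the 83 was -0.11, against -0.03 over all genes. In complex III, 4 of 8 were lower in WT MEFs. Uqcr11, a small subunit, read 16.06 and 16.15 in WT MEFs and 16.85 and 17.13 in null MEFs (log2 difference -0.89 ± 0.13, adjusted p = 0.000307). Uqcrfs1, the Rieske iron-sulfur protein that passes electrons within complex III, was lower in WT MEFs by a log2 difference of -0.62 ± 0.12 (adjusted p = 0.0027). It missed the threshold on the 12 sound scanner arrays. Uqcrc2, a core protein of complex III, differed by -0.35 (adjusted p = 0.0317), a call lost without any of 4 arrays (both WT MEFs with tumor cells, WT MEFs alone B, null MEFs alone A; adjusted p from 0.0511 to 0.229).

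Among the names counted as complex I by symbol, 1 (Ndufa4l2) was higher and 5 were lower in WT MEFs. Ndufa6, an accessory subunit, read 14.42 and 14.56 in WT MEFs and 14.99 and 15.22 in null MEFs (-0.61 ± 0.12, adjusted p = 0.00237). Ndufb11 differed by -0.73 (adjusted p = 0.00536, but 0.0565 without WT MEFs alone A). Sdha, the flavoprotein of complex II, differed by -0.48 (adjusted p = 0.0118). That call was lost without WT MEFs alone A or B or null MEFs alone A (adjusted p from 0.0556 to 0.107). In ATP synthase, Atp5d, the delta subunit of the rotor, differed by -0.52 and Atp5a1, the catalytic core's alpha subunit, by 0.64 (adjusted p = 0.026 and 0.0339). Neither call held throughout: Atp5d lost it without WT MEFs alone A or B or null MEFs alone B, and Atp5a1 without WT MEFs alone A or null MEFs alone B, with adjusted p values between 0.0705 and 0.248. Under normexp correction Atp5a1 had the opposite sign, -0.06.

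Of the 19 calls, those of Cox6a2, Cox7a1, Ndufa4l2, Ndufa6, Uqcr11 and Uqcrfs1 held when any 1 of the 14 arrays was left out. That of Cox8b also held, but is given as a description only. The number of calls was 10 without WT MEFs alone A, 12 without WT MEFs alone B or null MEFs alone B, and 11 on the 12 sound scanner arrays.

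After co-culture Cox6a2 and Ndufa4l2 again read higher in WT MEFs, and Cox8b higher in null MEFs. Cox6a2 read 10.42 and 10.74 in WT MEFs with tumor cells and 8.52 and 7.92 in null MEFs with tumor cells (log2 difference 2.36 ± 0.22, adjusted p = 1.99e-05). Ndufa4l2 read 7.65 and 7.78 against 5.74 and 5.84 (1.93 ± 0.21, adjusted p = 7e-05). Cox8b, again not well above background in WT MEFs, was at least 3.14-fold higher in null MEFs, where it read 6.60 and 6.80. None of these pairs overlapped.

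Cox6b2, the testis form of subunit VIb, read 8.71 and 8.87 in WT MEFs with tumor cells and 8.08 and 7.80 in null MEFs with tumor cells (0.85 ± 0.14, adjusted p = 0.00124). Uqcr11 was lower in WT MEFs by a log2 difference of -0.73 ± 0.13 (adjusted p = 0.00155), and Ndufb5 of complex I was higher by 0.54 ± 0.1 (adjusted p = 0.00246), a call lost on both scanner scalings. Ndufs7, an iron-sulfur subunit of complex I, differed by -0.84 (adjusted p = 0.0133), and by -0.71 and -0.64 without WT MEFs with tumor cells A and null MEFs with tumor cells B, when it missed the threshold (adjusted p from 0.101 to 0.102). Ndufa1 was 0.43 higher, Cox4nb 0.47 higher and Sdha 0.56 lower in log2 value in WT MEFs (adjusted p = 0.00763, 0.00598 and 0.00615). Each of these 3 lost its call without 1 array, Ndufa1 and Cox4nb without WT MEFs with tumor cells A (adjusted p = 0.0618 and 0.0568) and Sdha without WT MEFs with tumor cells B (adjusted p = 0.0591). Atp5d differed by -0.59 (adjusted p = 0.0167) and lost its call without array A of the WT or array B of the null co-culture (adjusted p from 0.116 to 0.127). Cox7a1, at 9.59 and 9.92 against 10.29 and 10.27, differed by -0.53 (adjusted p = 0.0292) and lost its call without WT MEFs with tumor cells A or either null co-culture array (adjusted p from 0.088 to 0.227).

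In co-culture 6 members were higher in WT MEFs (all genes tested, 14.8%) and 7 lower (all genes tested, 14.8%). Of these 13 calls, 10 (76.9%) were also among the 19 called in MEFs alone (52.6%), each in the same direction, in groups that share no array. Over all genes tested, 6004 were called in both, 78.6% of the calls in co-culture and 68.6% of the calls in MEFs alone, so the members' overlap was near that of all genes or below it. The count rose to 25 with the slide as a replicate block and to 20 with carry-over subtracted, was 8 without WT MEFs with tumor cells A and 21 without null MEFs with tumor cells A, and 6 calls (Cox6a2, Cox6b2, Cox8b, Ndufa4l2, Ndufb5 and Uqcr11) held when any 1 array was left out. Among these, Cox8b is again given as a description only. Partner RNA was estimated at 40.2% to 41.7% in the WT arrays and 10.2% to 10.4% in the null arrays of this comparison, and its part in the differences was not tested. Arrays A and B of null MEFs with tumor cells differed in Thy1 (10.48 and 5.61) and Postn (11.35 and 8.15). Null MEFs alone read 5.91 and 6.28 for Thy1 and 9.15 and 9.13 for Postn. The part of that in the differences was not tested.

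**Figure D3:**
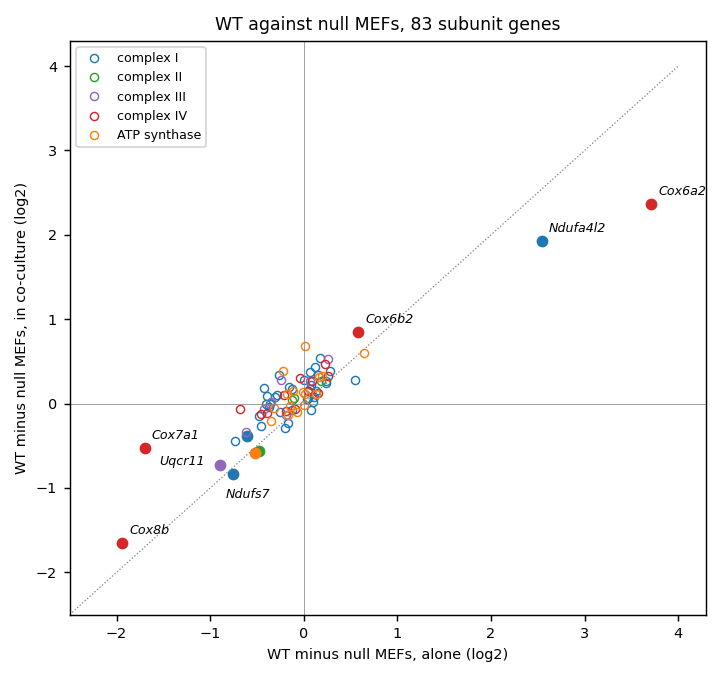
Log2 difference between WT and null MEFs for the 83 tested subunit genes, alone (x) and in co-culture (y); filled points were called in both comparisons, open points were not, colours give the complex, and the dotted line marks equal differences. The filled points number 10. Cox6a2 (3.71 and 2.36) and Ndufa4l2 (2.54 and 1.93) lie far to the upper right, and Cox8b (fitted values -1.94 and -1.65, dim in WT MEFs) to the lower left.

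In null MEFs, growth with tumor cells was accompanied by slightly lower values across the list, with no single member passing the test. Higher calls numbered 0 (all genes tested, 2.82%) and lower calls 0 (all genes tested, 0.333%), while 18 of the 83 (21.7%) had an unadjusted p under 0.05, as had 2842 of all genes tested (11%). The log2 difference was below 0 for 77 of 83 members (92.8%), against 59.9% of all genes tested, with a median of -0.2 against -0.04. On both slides taken apart, 57 members were below 0 and 3 above 0. The same count was not made over all genes tested, so it has no background to be read against. All 8 members of complex III and all 4 of complex II were below 0, as were 16 of 17 in ATP synthase, 35 of 37 in complex I and 14 of 17 in complex IV. The lowest were Ndufb4 (-0.59 ± 0.17), Uqcr10 (-0.54 ± 0.15) and Cox6b2 (-0.49 ± 0.14), with adjusted p values from 0.107 to 0.138. The highest was Cox6a2, at 0.57 ± 0.22 (adjusted p = 0.318), followed by Ndufa4l2 at 0.33, which was well above background on only 1 of the 2 arrays of null MEFs alone, and Atp5g2 at 0.16. The arrays A and B of null MEFs with tumor cells differed in Thy1 and Postn, as given above, and the part of that was not tested.

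A single array weighed most in that shift. The mean over the 83 members was 14.637 in null MEFs with tumor cells A and 14.491 in null MEFs with tumor cells B, against 14.745 and 14.775 in null MEFs alone. Without array A, 68 of 83 members were below 0 with a median of -0.27 and 5 passed the test; without array B, 67 were below 0 with a median of -0.14 and 0 passed. With carry-over subtracted 77 were below 0 with a median of -0.23, and on the 12 sound scanner arrays 73 with a median of -0.3.

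In WT MEFs, growth with tumor cells left the list centred near all genes. In WT MEFs 1 member rose (all genes tested, 6.32%) and 1 fell (all genes tested, 4.2%), and the median was -0.05 against -0.04 over all genes. Cox7a1 rose from 8.90 and 9.06 alone to 9.59 and 9.92 with tumor cells (0.77 ± 0.16, adjusted p = 0.0105). Cox6a2 fell from 11.22 and 11.51 to 10.42 and 10.74 (-0.78 ± 0.22, adjusted p = 0.0473). Both co-culture values lay between those of WT MEFs alone and those of the tumor cells they had grown with, which read 10.15 and 10.12 for Cox7a1 and 9.66 and 9.72 for Cox6a2, and partner RNA was estimated at 40.2% and 41.7%. Its part in these 2 differences was not tested beyond the subtraction that follows. With that share subtracted, the differences were 0.42 (adjusted p = 0.255) and -0.38 (adjusted p = 0.766) and neither passed. Cox7a1 also lost its call without WT MEFs with tumor cells B or WT MEFs alone A (adjusted p from 0.0847 to 0.111). Cox6a2 lost it without any of 10 arrays, those of the tumor cell and WT MEF groups (adjusted p from 0.0517 to 0.292). Otherwise Atp5f1 (0.38 ± 0.15) and Ndufs6 (0.37 ± 0.26) were the highest and Ndufa2 (-0.45 ± 0.23) and Ndufa11 (-0.31 ± 0.16) the lowest, with adjusted p values from 0.146 to 0.476.

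The responses of WT and null MEFs to tumor cells were compared by their difference. It was below 0 for 17 of 83 members (20.5%), against 50.2% of all genes tested, and the members had a median of 0.16. Called members numbered 1 higher (all genes tested, 1.97%) and 1 lower (all genes tested, 1.06%). Cox7a1 had a difference of responses of 1.18 ± 0.22 (adjusted p = 0.0178) and Cox6a2 of -1.35 ± 0.31 (adjusted p = 0.0449). Per slide, the difference of responses of Cox6a2 was -1.88 on the A arrays and -0.82 on the B arrays, and that of Cox7a1 was 0.86 and 1.5. Arrays A and B of null MEFs with tumor cells also differed in Thy1 (10.48 and 5.61) and Postn (11.35 and 8.15). The part of that in these values was not tested. With carry-over subtracted the value of Cox6a2 was 1.22 ± 0.86 (adjusted p = 0.685), with the opposite sign, and that of Cox7a1 was 0.78 ± 0.3 (adjusted p = 0.291). Cox6a2 lost its call without any of 12 arrays, all but null MEFs with tumor cells B and null MEFs alone B, and Cox7a1 without WT MEFs with tumor cells B, WT MEFs alone A, null MEFs with tumor cells A or null MEFs alone B (adjusted p from 0.0505 to 0.185 over both). Among the rest, Atp5l (0.68 ± 0.46) and Ndufa7 (0.61 ± 0.25) were highest and Ndufa4l2 (-0.62 ± 0.3, dim on 1 array of null MEFs alone) and Ndufa2 (-0.27 ± 0.33) lowest, with adjusted p values from 0.317 to 0.892.

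In tumor cells, growth with WT MEFs changed no subunit gene past the threshold. Higher calls numbered 0 (all genes tested, 7.04%) and lower calls 0 (all genes tested, 4.77%), with 11 members (13.3%) at an unadjusted p under 0.05 against 6783 of all genes tested (26.2%), and the median was 0.06 against -0.04 over all genes. The sign of this median was negative (-0.14) on the 12 sound scanner arrays. The highest values were those of Ndufs6 (0.69 ± 0.26) and Cox7a1 (0.45 ± 0.16), beside Ndufa4l2, which was at least 1.5-fold higher but not well above background in tumor cells alone, and the lowest those of Cox6b2 (-0.48 ± 0.14), Atp5b (-0.42 ± 0.12) and Ndufa10 (-0.41 ± 0.14). The adjusted p values of the other 5 ran from 0.052 to 0.122. With the slide as a replicate block 4 members passed, 1 higher and 3 lower. A count of 1, lower, was made without array B of this co-culture or either array of tumor cells alone, and 2 without either null MEF co-culture array.

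Growth with null MEFs was accompanied by a higher level of Cox6a2 in the tumor cells. It read 11.15 and 10.98, against 9.55 and 9.27 in tumor cells alone and 9.66 and 9.72 in tumor cells with WT MEFs. The tumor cells with null MEFs were above both other groups without overlap, by 1.65 ± 0.22 against tumor cells alone (3.14-fold, adjusted p = 0.000487) and by a log2 difference of 1.37 ± 0.22 against tumor cells with WT MEFs (adjusted p = 0.00299, WT minus null -1.37). Both calls held when any 1 array was left out, and the differences were 1.6 and 1.7 on slides A and B against tumor cells alone. Null MEFs read 7.42 to 8.52, and the share of partner RNA in these tumor cell arrays was estimated at 9.44% and 23.5%. Its part in the difference was not tested beyond the subtraction that follows. With that share subtracted the difference was 1.88 ± 0.61 against tumor cells alone and -1.7 ± 0.61 for WT minus null, and neither passed with the larger error (adjusted p = 0.0714 and 0.119). On the 12 sound scanner arrays only 1 array of tumor cells with null MEFs entered. There WT minus null was -1.35 and -1.18 under the 2 scalings, and no test is read from these values.

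In all, 2 members rose with null MEFs (all genes tested, 10.1%) and 3 fell (all genes tested, 9.62%). Ndufv3, a small subunit of the NADH-oxidising arm of complex I, read 13.74 and 13.96 against 13.16 and 13.21 in tumor cells alone (0.67 ± 0.17, adjusted p = 0.0195). Uqcrh, the hinge protein of complex III, read 15.31 and 15.58 against 16.02 and 15.91 (-0.52 ± 0.14, adjusted p = 0.0257). Sdhd, a membrane anchor of complex II, differed by -0.35 ± 0.1 and Cox6b2 by -0.48 ± 0.14 (adjusted p = 0.0302 and 0.0405). None of these 4 kept its call when each array of the 2 groups was left out: Ndufv3 lost it without tumor cells with null MEFs B or either array of tumor cells alone, and Uqcrh without tumor cells with null MEFs A or either array of tumor cells alone (adjusted p from 0.0572 to 0.135). Sdhd lost it without any array of these 2 groups or of WT MEFs with tumor cells, and Cox6b2 without 7 arrays, both of tumor cells with null MEFs, tumor cells alone A and the 4 WT MEF arrays (adjusted p from 0.0525 to 0.227). With the slide as a replicate block the count was 8 in place of 5. It was 2 without tumor cells with null MEFs B, and 3 without either array of tumor cells alone or of WT MEFs with tumor cells.

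Tumor cells with WT MEFs and with null MEFs differed in 2 members, 1 higher with WT MEFs (all genes tested, 4.12%) and 1 lower (all genes tested, 5.39%). The lower one was Cox6a2. The higher one was Uqcrh, at 16.08 and 16.16 with WT MEFs and 15.31 and 15.58 with null MEFs (0.67 ± 0.14, adjusted p = 0.0128). That call was lost on leaving out array B of the tumor cells grown with WT MEFs (1 call left) or array A of those grown with null MEFs (adjusted p from 0.0722 to 0.0782). Cox7b (0.56 ± 0.17), Ndufa4 (0.5 ± 0.22), Ndufs7 (-0.48 ± 0.22) and Ndufv3 (-0.45 ± 0.17) came next, with adjusted p values from 0.0698 to 0.217. The slide as a replicate block gave 4 calls.

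**Figure D4:**
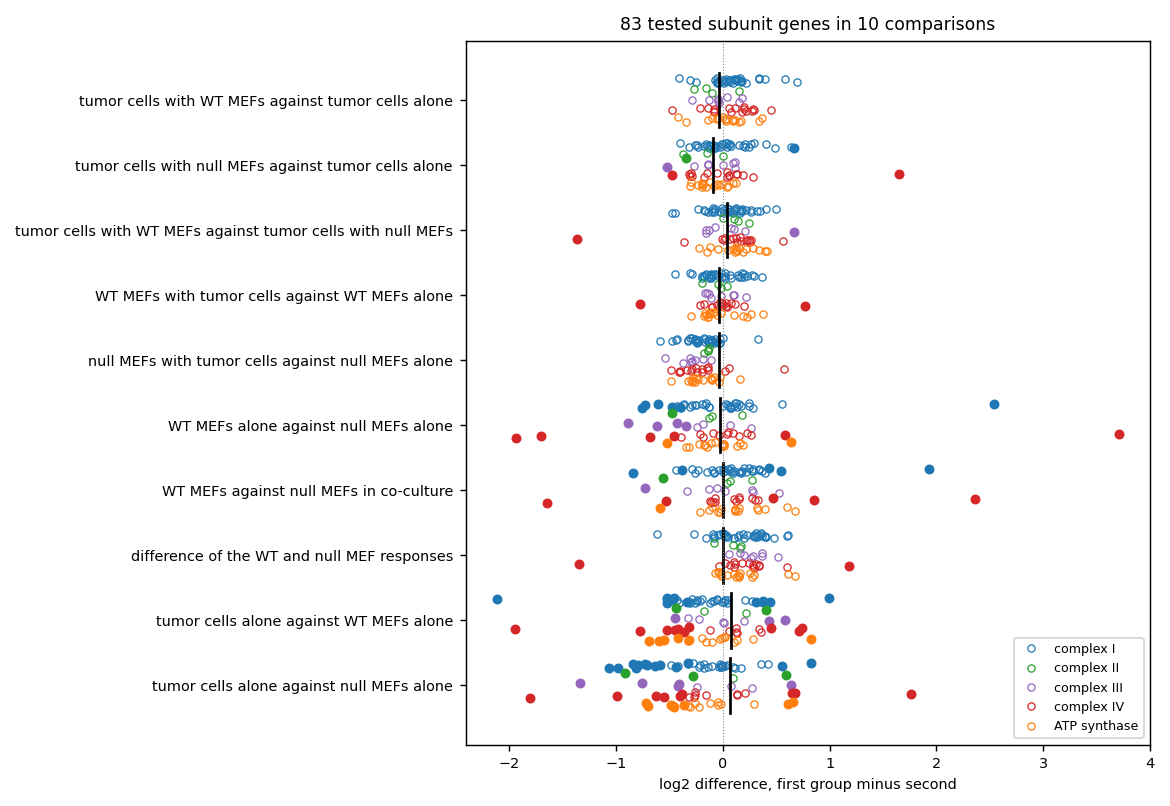
Log2 difference of the 83 tested subunit genes in the 10 comparisons, 1 row each, coloured by complex; filled points passed the test (limma, adjusted p below 0.05), open points did not, and black bars mark the median of all genes tested. Most points lie within 0.5 of 0, and the far points are Cox6a2, Ndufa4l2, Cox8b, Cox7a1 and Uqcr11.

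Tumor cells and MEFs grown alone differed in more members, and here the direction of the smaller differences depended on the scaling between arrays. Against WT MEFs, 12 members were higher in tumor cells (all genes tested, 27.9%) and 21 lower (all genes tested, 23.6%), with a median of -0.1 against 0.08 over all genes. On the 12 sound scanner arrays, scaled to their 75th percentile, the split was 17 higher and 2 lower with a median of 0.33, and all genes shifted to 0.25. Against null MEFs, 9 were higher (all genes tested, 27.3%) and 29 lower (all genes tested, 25.4%), with a median of -0.22 against 0.07. On the scanner arrays that split was 15 higher and 5 lower with a median of 0.24, and all genes shifted to 0.27. Only 1 sound scanner array of tumor cells alone entered those values. On the deposited values the first comparison had 21 calls without tumor cells alone B and 20 without WT MEFs alone B. In the first comparison 11 of the 33 calls and in the second 12 of the 38 were also made on the scanner arrays.

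Among the members called under both scalings, Ndufa10, a complex I accessory subunit, read 14.35 and 14.51 in tumor cells alone, 13.42 and 13.47 in WT MEFs alone and 13.56 and 13.64 in null MEFs alone. Tumor cells were higher without overlap, by 0.99 ± 0.14 (adjusted p = 0.000162) and 0.83 ± 0.14 (adjusted p = 0.000544). Uqcrc1, a core protein of complex III, read 14.55 and 14.28 against 13.85 and 13.83 in WT MEFs and 13.78 and 13.77 in null MEFs (0.58 and 0.64, adjusted p = 0.00132 and 0.000603). Cox4i2, the form of subunit IV known from lung and hypoxic cells, read 8.11 and 8.17 against 7.38 and 7.44 in WT MEFs and 7.65 and 7.35 in null MEFs (0.74 and 0.65, adjusted p = 0.000922 and 0.00204). Atp5f1, a stator subunit of ATP synthase, was higher by 0.83 and 0.61 (adjusted p = 0.000786 and 0.00527). All 4 held when any 1 array was left out, and of their calls only that of Atp5f1 against null MEFs was lost under normexp correction (0.58, adjusted p = 0.0741). The 2 comparisons share the tumor arrays, so they do not stand as separate evidence.

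Cox6a2 and Cox7a1 in tumor cells lay between the MEF genotypes. Cox6a2, at 9.55 and 9.27 in tumor cells alone, was -1.95 ± 0.22 against WT MEFs and 1.76 ± 0.22 against null MEFs (adjusted p = 2.71e-05 and 5.67e-05). Cox7a1, at 9.68 and 9.70, was 0.71 ± 0.16 and -0.99 ± 0.16 (adjusted p = 0.00333 and 0.000356). Ndufa4l2 was not well above background in tumor cells alone and was at least 4.34-fold higher in WT MEFs (adjusted p = 1.23e-05). Cox8b, also not well above background in tumor cells, was at least 3.51-fold higher in null MEFs. Uqcr11 read 15.59 and 15.71 in tumor cells and was lower than in null MEFs by a log2 difference of -1.34 ± 0.13 (adjusted p = 7.85e-06). Ndufs7 was lower than in null MEFs by -1.07 ± 0.22 (adjusted p = 0.00175). Cox8b is given here as a description only. The other members named in this paragraph held in these comparisons when any 1 array was left out.

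Several calls that the deposited table gave were lost on the scanner arrays. Cox7a2l, a factor that helps join complexes III and IV, went from -0.78 to -0.37 against WT MEFs and from -0.63 to -0.03 against null MEFs. Against WT MEFs they also included Ndufa13 (-0.52, but -0.26), Atp5j2 (-0.69, but -0.31) and Atp5h (-0.55, but -0.09). Uqcr11 against WT MEFs turned from -0.45 to 0.33. Against null MEFs, Sdha went from -0.92 to -0.47, Ndufv3 from -0.98 to -2.07 with adjusted p = 0.388, Uqcr10 from -0.76 to -0.29 and Ndufa13 from -0.73 to -0.39, all missing the threshold. Atp5d turned from -0.72 to 0.2 and Atp5j from -0.49 to 0.28. Cox4nb, no subunit, was higher in tumor cells by 0.45 and 0.68 and kept both calls. Sdhb, the iron-sulfur subunit of complex II, was 0.59 higher than in null MEFs (adjusted p = 0.00421). Against WT MEFs it was 0.4 higher (adjusted p = 0.0299), a call lost without tumor cells alone A or B or WT MEFs alone A (adjusted p from 0.0652 to 0.167). In that comparison Sdha (-0.44) lost its call without tumor cells alone A or WT MEFs alone A or B, Uqcr11 without tumor cells alone A or WT MEFs alone B, and Uqcrc2 (0.43) without WT MEFs alone B (adjusted p from 0.0537 to 0.0776 over these). Sdhc against null MEFs (-0.28, adjusted p = 0.0388) lost its call without any of 8 arrays.

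The general forms varied less than their counterparts in the 6 pairs of which both forms were tested. Level was not matched within the pairs, and its part in the ranges was not tested. The tested members had a median level of 15.11, while group means of Cox8b and Ndufa4l2 reached at most 7.1 and 8.01. The ranges of Cox8b and Ndufa4l2 are bounds. The range of group means was 0.32 for Cox4i1 and 0.74 for Cox4i2, 0.42 for Cox6a1 and 3.71 for Cox6a2, 0.48 for Cox6b1 and 1.07 for Cox6b2, 0.7 for Cox7a2 and 1.7 for Cox7a1, 0.55 for Cox8a and 2.05 for Cox8b, and 1.0 for Ndufa4 and 2.54 for Ndufa4l2. Cox7a2, the general form, was lower in WT than in null MEFs alone (-0.46 ± 0.13, adjusted p = 0.0167), the direction of Cox7a1, but lost the call without any of the 4 arrays compared (adjusted p from 0.056 to 0.0908). Cox6b2 was higher in WT MEFs alone by 0.58 ± 0.14 (adjusted p = 0.0103), and 0.47 to 0.57 without WT MEFs alone A or null MEFs alone B, when it missed the threshold. Cox7b was lower in WT MEFs alone (-0.68 ± 0.17, adjusted p = 0.0109) and lost the call without WT MEFs alone B or null MEFs alone B (adjusted p from 0.054 to 0.0615). Cox7b2 and Cox8c, forms known from testis, were not well above background in any group. Atp5g1, Atp5g2 and Atp5g3, which encode the same ring subunit of ATP synthase, had ranges of only 0.14, 0.29 and 0.23, and none was called in any of the 10 comparisons on the deposited values, which average its spots. Read alone on the 12 sound scanner arrays, 1 of the 2 probes of Atp5g2 was higher in tumor cells than in WT and null MEFs alone (0.82 in both, adjusted p = 0.0282 and 0.0259) and the other was not called (0.63 and 0.65, adjusted p = 0.0865 and 0.0715). Ndufb4 was called in 1 of the 10 comparisons, tumor cells against null MEFs alone (-0.64, adjusted p = 0.0092, but 0.0834 without tumor cells alone B).

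The mitochondrially encoded subunits, which the array spells in capitals, had few calls. ATP6 was not among the names of the array and the other 12 were tested. Between the MEF genotypes 0 of 12 passed, alone (all genes tested, 33.8%) or in co-culture (29.6%). In the responses of WT and null MEFs 0 of 12 passed as well (all genes tested, 10.5% and 3.2%). Their differences between WT and null MEFs alone ran from -0.42 to 0.22 with a median of -0.11. Between tumor cells and WT MEFs alone they ran from -0.18 to 0.76 with a median of 0.29. Standard errors were as high as 0.42 (ND2), so a missing call does not show an equal level. ND1, a core subunit of complex I, was the sole call: its group mean was 13.58 in tumor cells alone, 12.92 with null MEFs (-0.66, adjusted p = 0.0321) and 12.92 and 12.90 in WT and null MEFs alone (0.66 and 0.68, adjusted p = 0.0119 and 0.0101).

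Genes that serve the complexes are given next, all on the deposited scale, and their counts are to be read against the shares of all genes called. Those shares were 15.9% higher and 17.9% lower between the MEF genotypes alone and 14.8% each way in co-culture. They were 27.9% and 23.6% for tumor cells against WT MEFs and 27.3% and 25.4% against null MEFs. For tumor cells in co-culture against alone they were 7.04% and 4.77% with WT MEFs and 10.1% and 9.62% with null MEFs. Between the 2 tumor co-cultures they were 4.12% and 5.39%. For MEFs with tumor cells against alone they were 6.32% and 4.2% in WT and 2.82% and 0.333% in null MEFs. Among 29 assembly factors on the array, 3 were higher and 7 lower in WT than in null MEFs alone. Uqcc, which helps assemble complex III, was lower by a log2 difference of -2.52 (adjusted p = 1.98e-07), Cox15, needed for the haem of complex IV, by -0.76, and Sdhaf1, which helps insert iron-sulfur clusters into complex II, was higher by 0.75. After co-culture 3 were higher and 4 lower, led by Uqcc (-1.81), Sdhaf1 (0.69) and Cox15 (-0.63). In tumor cells, 3 fell with WT MEFs (Tmem70 by 0.64, Taco1 by 0.6 and Ecsit by 0.48 on the log2 scale). With null MEFs 1 rose and 5 fell, among them Lyrm7 (0.94), Ndufaf4 (-0.49) and Acad9 (-0.46), and Lyrm7 was the single call between the 2 co-cultures (-1.0, WT minus null). In WT MEFs Sco2 and Acad9 rose with tumor cells (0.76 and 0.53). The share of tumor cell RNA in these co-culture arrays was estimated at 40.2% and 41.7%, and its part in these rises was not tested. Against WT and null MEFs, tumor cells alone had 16 and 14 higher and 3 and 5 lower. Acad9 (1.62 and 1.27), which acts in complex I assembly, and Sco2 (1.71 and 1.3), a copper chaperone of complex IV, were higher in both, and Uqcc was higher against WT (1.43) and lower against null MEFs (-1.1). Nubpl was higher against null MEFs by 1.68 and Ttc19 by 0.84.

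Among 19 tested regulators of mitochondrial gene expression, 0 were higher and 5 lower in WT than in null MEFs alone. Peo1, the mitochondrial DNA helicase now called Twnk, differed by -1.44, Polrmt, the mitochondrial RNA polymerase, by -1.06, and Myc by -2.43 (adjusted p = 7.96e-06, 9.7e-06 and 3.02e-05). In co-culture 1 was higher and 6 lower, with Polrmt at -1.02, Myc at -2.39 and Peo1 at -0.94. In tumor cells with null MEFs, Tfb2m, a mitochondrial transcription factor, fell by 0.75 on the log2 scale against tumor cells alone, with Gabpb1 at -0.48 and Tfb1m at -0.38; Tfb2m was also higher with WT than with null MEFs (0.68). Tumor cells alone had 7 higher and 0 lower against WT MEFs, led by Gabpb1 (1.19), Peo1 (1.06) and Lrpprc (1.13), and 5 higher and 4 lower against null MEFs, led by Gabpb1 (1.45), Polrmt (-0.79) and Ssbp1 (-0.83).

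The 19 genes listed with the TCA cycle include pyruvate dehydrogenase components, such as Dlat, and pyruvate carboxylase (Pcx). Of these 19, 3 were higher and 3 lower in WT than in null MEFs, both alone and in co-culture. Suclg2 (-1.78 and -1.28), Dlst (0.94 and 0.56) and Fh1 (-0.7 and -0.45) led both. Tumor cells with WT MEFs had Dlat (-0.37) and Idh3a (-0.65) lower, and with null MEFs Fh1 (-0.43) and Idh3a (-0.6), against tumor cells alone, and Ogdh was lower with WT than with null MEFs (-0.59). Pcx, which makes oxaloacetate from pyruvate, fell in WT MEFs with tumor cells (-0.68), where the share of tumor cell RNA was estimated at 40.2% and 41.7%. The part of that share in the fall was not tested. Pcx was lower in tumor cells than in WT and null MEFs alone (-2.27 and -1.65). In those 2 comparisons 7 and 8 of the 19 were higher and 4 and 4 lower, with Dlat (1.12 and 1.39), Suclg2 (1.62 against WT MEFs) and Dlst (1.14 against null MEFs) among the higher.

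Among 13 tested electron carriers and shuttles, Gpd2, which feeds electrons from glycerol 3-phosphate into the chain, was lower in WT than in null MEFs (-1.12 alone, -1.05 after co-culture). It also fell in tumor cells with WT MEFs (-1.16 against alone, -0.88 against tumor cells with null MEFs). In MEFs alone 2 of the 13 were higher and 3 lower, with Slc25a13 at -0.86 and the ADP/ATP carrier Slc25a4 at 0.45. In co-culture 3 were higher and 2 lower, with Ucp2 at 0.78 and Slc25a13 at -0.59. Ucp2 and Ucp3, carriers of the uncoupling protein family, rose in WT MEFs with tumor cells (1.07 and 0.57), where the share of tumor cell RNA was estimated at 40.2% and 41.7%, and Ucp2 was higher in tumor cells alone than in WT MEFs alone (1.31) and null MEFs alone (1.15). Slc25a13 fell in tumor cells with null MEFs (-0.57) and was higher in tumor cells than in WT MEFs (1.12), as Gpd2 was (1.06). Against null MEFs, Etfdh (-0.69) and Slc25a11 (-0.43) were lower in tumor cells. In null MEFs with tumor cells, 0 of the genes in these lists passed.

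Of the members, 62 had 1 probe and 23 had several, whose spots the deposited values average. Read probe by probe on the 12 sound arrays, no member had probes called in opposite directions within a comparison. The largest spread was in Cox7c, where the 3 probes differed between tumor cells and null MEFs alone from -0.78 to 0.51, so its value is an average of probes that disagree. The members on which the results above turn, Cox6a2, Ndufa4l2, Cox8b, Cox7a1 and Uqcr11, each had a single probe, and no second probe was at hand to set beside it.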

How the data were processed

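RNA (0.5 ug) was hybridised to one-colour Agilent arrays. Per the file headers, the intensities came from Feature Extraction 10.1.1.1; the submitters' processing notes name 9.1. The log2 values deposited by the authors, 1 per gene name, had array medians from 6.34 to 6.4, and how they were scaled is not given in the sources used here. The scanner output was faulty for array A of tumor cells alone and array A of tumor cells grown with null MEFs, so scanner alternatives used 12 arrays. The number of arrays limits the precision.

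Gene names well above background on both arrays of at least 1 group were tested with limma 3.58.1 (R 4.3.3). In the 2 groups with a faulty scanner file, the sound array alone was enough. Arrays on which every spot of a gene name had an outlier flag were passed over for that name. The fit had 1 mean per group over all 14 arrays (7 residual degrees of freedom) and 10 contrasts. Tests were two-sided, with Benjamini-Hochberg adjustment over 25852 names and a threshold of 0.05. The fit was tested on simulated data. Alternatives were the slide as a replicate block, quantile normalization, no filter, each cell type fitted alone, carry-over subtracted, both scanner scalings (75th percentile, or normexp with offset 50 and quantile), each probe alone, and 14 fits leaving out 1 array. All A arrays lay on 1 slide and all B arrays on the other. A minus B differences correlated between groups in 20 of 21 pairs above 0.1 (0.092 to 0.599, median 0.298), so not every pair passed, but the letter marks the slide.

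The members and lists were chosen with earlier results of these data known. Named were, per comparison, up to 3 called members of each complex with the smallest p, the 3 largest differences each way, all isoform groups, members near background, and up to 3 called genes of each list. Others were added after their values were seen.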

Additional observations from a re-analysis of the deposited data

Results flagged for a closer look

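The responses of WT and null MEFs to tumor cells differed by test for a pair of members, both forms known from muscle. For Cox6a2 the response of WT MEFs minus that of null MEFs was -1.35 (limma, adjusted p = 0.0449), and for Cox7a1 it was 1.18 (adjusted p = 0.0178). Each had the same sign on both slides, and neither call held when each array was left out in turn or when carry-over was subtracted, where Cox6a2 had the opposite sign. Arrays A and B of null MEFs with tumor cells differed in Thy1 and Postn, and the part of that was not tested.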

How the results depend on the processing

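The number of members called moved by more than 1.5 times in these settings; the cause was not tested except where fewer arrays entered. For tumor cells with WT MEFs against alone it was 0, and 4 with the slide as a replicate block, 1 after quantile normalization and 1 on the 12 sound scanner arrays. For tumor cells with null MEFs against alone it was 5, and 8 with the replicate block, 1 with each cell type fitted alone and 1 with carry-over subtracted. On the scanner arrays each of these 2 groups had only 1 sound array, so no count is given. Those groups had 1 sound scanner array in the other comparisons too. For the 2 tumor co-cultures it was 2, and 4 with the replicate block, 1 with each cell type alone, 0 on the scanner arrays and 0 with normexp. For WT MEFs with tumor cells against alone it was 2, and 1 after quantile normalization, without the filter, with each cell type alone and with normexp, and 0 with carry-over subtracted and on the scanner arrays. For the difference of responses it was 2, and 1 after quantile normalization and without the filter, and 0 in the other 4 settings besides the block. For WT against null MEFs it was 19 alone, and 11 on the scanner arrays, and 13 in co-culture, and 25 with the replicate block and 20 with carry-over subtracted. For tumor cells it was 33 against WT MEFs, and 19 on the scanner arrays and 18 with normexp, and 38 against null MEFs, and 20 and 22. With the replicate block none of the 114 calls made was lost, and it added the calls counted above.

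Leaving out 1 array gave 0 to 2, 2 to 7, 1 to 3, 0 to 2 and 0 to 5 calls in the first 5 comparisons (the last null MEFs with tumor cells against alone), 10 to 21 and 8 to 21 between MEF genotypes alone and in co-culture, 0 to 2 for the difference of responses, and 20 to 37 and 28 to 39 for tumor cells against WT and null MEFs. Members with several probes had 30 calls, and 9 with at least 1 probe called on its own.

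Signs turned as follows. On the scanner arrays, tumor cells against WT MEFs gave 0.18 for Atp5e, 0.14 for Atp5j, 0.08 for Atp5k, 0.36 for Cox4i1, 0.49 for Cox6c, 0.12 for Cox8a and Ndufa1, 0.09 for Ndufa3 and Ndufs5 and 0.33 for Uqcr11. Against null MEFs they gave 0.2 for Atp5d, 0.25 for Atp5h, 0.28 for Atp5j, 0.14 for Atp5k, 0.02 for Cox6a1, 0.09 for Cox7a2, 0.33 for Ndufa1, 0.19 for Ndufs3, 0.17 for Ndufs6 and 0.04 for Sdhc. With normexp, Atp5a1 was -0.06 between MEF genotypes alone and Ndufb5 -0.33 in tumor cells against null MEFs. With carry-over subtracted, the difference of responses of Cox6a2 was 1.22. Genes near background, Cox8b and Ndufa4l2, have only bounds where dim.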
